A study of Homo sapiens with 2 samples.

Results

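The array described here compared 293T cells treated with 10 µM Y27632 for 6 h with untreated 293T cells, 1 of 2 arrays in the series. 293T is an established line derived from human embryonic kidney cells, and Y27632 is a small molecule that blocks the kinases ROCK1 and ROCK2. The sample titles of both arrays read control and a time, so the treatment is taken from the labels of each channel's source and agent. The treated RNA carried the dye Cy3 and the untreated RNA, given a time of 0 h, carried Cy5. The other array had the same layout with 3 h of treatment, and its values are given only side by side. The labels name no vehicle, no separate culture for each array and no dye swap, so the inhibitor cannot be told apart from time in culture, handling, vehicle or dye. With 1 array there is no replicate, no error between samples and no p-value.

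Each probe had 1 deposited log ratio of the channels, read here in base 2. Whether treated or untreated RNA is the numerator is not given in the sources used here, so values are called positive or negative as deposited and never higher or lower in treated cells. Of 24267 probes, 20337 had a value. Genes were given the mean of their probes that carry a single gene symbol, which left 10716 genes. Their median was 0.02, their SD 0.36, and 51.5% were positive and 47.3% negative.

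ROCK kinases phosphorylate myosin light chains, the myosin phosphatase subunit MYPT1 and LIM kinases, and so drive contraction of actin filaments and keep filaments from being severed. Blocking them makes many cultured cells lose stress fibres and spread. Free actin binds and holds back MRTF-A and MRTF-B, cofactors of the transcription factor SRF, and tension in the actin network also bears on YAP and TAZ. ROCK and its relative citron kinase act again at the end of mitosis, in the contractile ring.

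The only error the array can show is the spread between different probes of the same gene. In 594 genes with 2 or more probes the SD between probes of a gene was 0.34, a 1.27-fold difference. For the 511 genes with exactly 2 probes, the probes differed by a median of 0.28 and by up to 0.79 in 90% of genes. Across those genes the first and the second probe had r = 0.15, a description over genes on 1 array that share its hybridisation. Probes lay on both sides of 0 in 275 of the 594 genes. The largest disagreement was BAALC, whose 3 probes ran from −0.44 to 1.69, and the cell cycle inhibitor gene CDKN2B had probes at −1.66 and −0.07.

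**Figure D1:**
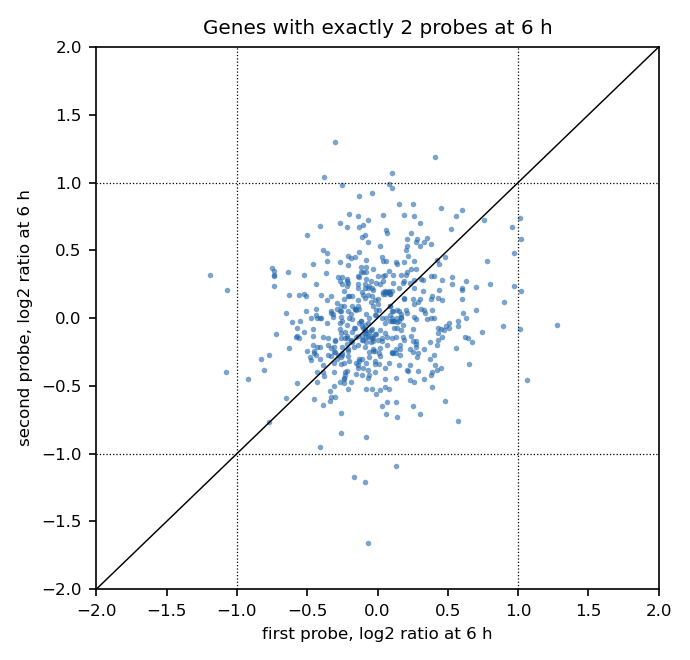
Each point is 1 of 511 genes with exactly 2 probes, with the log2 ratio of the first probe by identifier on the x axis and of the second on the y axis, both at 6 h. The line marks equal values and the dotted lines mark 1 and −1. No point lies past a dotted line on both axes in the same direction.

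At 1 unit from 0, a 2-fold difference, 75 genes (0.700%) were positive and 78 (0.728%) negative. All 153 rest on a single probe. Among the 594 genes with several probes, 11 had a probe at 1 or more and 10 a probe at −1 or less, but none had every probe past that size. Single probes reached it about as often in both classes, at 1.51% for genes with 1 probe and 1.63% for probes of genes with several. At a 1.5-fold difference, or 0.58 in log2 units, 603 genes (5.63%) were positive and 454 (4.24%) negative. These percentages are the background against which the gene lists below are read.

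In 7 genes with 2 or more probes, every probe lay at least 1.5-fold from 0 on the same side. Probe sequences were not examined, so the probes of a gene may not be independent. On the positive side, ZNF254, a zinc finger gene, had probes at 0.74 and 1.01. SLC30A5, which moves zinc into the secretory pathway, had probes at 0.67 and 0.96. The probes of ZNF30 lay at 0.72 and 0.76, and those of CDC26, a subunit of the anaphase-promoting complex, at 0.60 and 0.80. On the negative side, HFE, which controls iron uptake and is mutated in hereditary haemochromatosis, had 3 probes at −0.66, −0.71 and −0.96. CABLES1, a partner of cyclin-dependent kinases, had both probes at −0.77. RAB11FIP1, an effector of the recycling endosome GTPase RAB11, had −0.59 and −0.65. All 7 gene means had the same sign on the 3 h array, at 0.76 for ZNF254, 0.54 for SLC30A5, 0.41 for ZNF30, 0.71 for CDC26, −0.64 for HFE, −0.75 for CABLES1 and −0.41 for RAB11FIP1. The share of all genes with the same sign on both arrays is not given here, and both arrays may share the control RNA.

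The 20 highest genes, leaving out placeholder symbols, ran from 1.28 to 2.07. The highest was DCLK3, a doublecortin-like kinase gene, at 2.07, a 4.20-fold difference. The splicing kinase genes CLK1 and CLK3 had 1.77 and 1.54. Between them lay KLHL32 at 1.61, ZNF66 at 1.6 and the transcript HCG27 at 1.59. EEA1, which tethers early endosomes, had 1.54, and S100A3, of the S100 calcium-binding family, followed at 1.5. ANTXR2, an anthrax toxin receptor gene, had 1.47, and ADCYAP1R1, the receptor gene for the neuropeptide PACAP, had 1.42. ZNF93 followed at 1.40, CCAR1 at 1.39 and the bitter taste receptor gene TAS2R4 at 1.38. RUNX2, a transcription factor of bone formation, and FGD6, an exchange factor for CDC42, both had 1.35. The kinetochore gene NUF2 and the IgA receptor gene FCAR had 1.33. CDC25C, the phosphatase gene of mitotic entry, had 1.31, PRKG2, a cGMP-dependent kinase gene, 1.29, and the calcium channel gene TRPV6 1.28.

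Of these 20 genes, 7 had no value on the 3 h array: DCLK3, HCG27, ADCYAP1R1, TAS2R4, RUNX2, FCAR and PRKG2. Another 12 were positive there, 6 of them at 1 or more, and FGD6 was negative at −0.53. Over all genes, 23 of the 247 measured at 6 h alone (9.31%) were past 1 unit, against 1.24% of the 10469 measured on both arrays. What removed a probe from an array was not tested, and no spot brightness was used here.

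The 20 lowest genes ran from −1.99 to −1.32. IRF5, an interferon regulatory factor of myeloid and B cells, was at −1.99, a 3.97-fold difference, and stood 0.53 below the next gene. RPS2, of the small ribosomal subunit, had −1.46. Genes known mainly from the testis came next: RNF17 at −1.45, ODF1, of the sperm tail, at −1.44 and TSGA10IP at −1.40. CLDN9, a tight junction claudin, had −1.43, the phospholipase gene PLB1 −1.41 and ZNF516 −1.40. DUOX1, which makes hydrogen peroxide, had −1.39, and OVOL2, a repressor that keeps epithelial identity, had −1.38, as did PROKR2, the receptor gene for prokineticin 2. RGS6, which turns off G protein signals, had −1.34, and the lens crystallin gene CRYGC, the hyaluronan synthase gene HAS3 and the cytokine gene IL20 had −1.33. At −1.32 lay the cystatin gene CST5, the myelin gene MAG, the guidance ligand gene SLIT3, the nuclear receptor gene PPARD and TGM3, a transglutaminase gene of the epidermis. On the 3 h array 17 of the 20 were negative and 3 lay at −1 or less, TSGA10IP was at 0.06, and CLDN9 and MAG had no value.

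**Figure D2:**
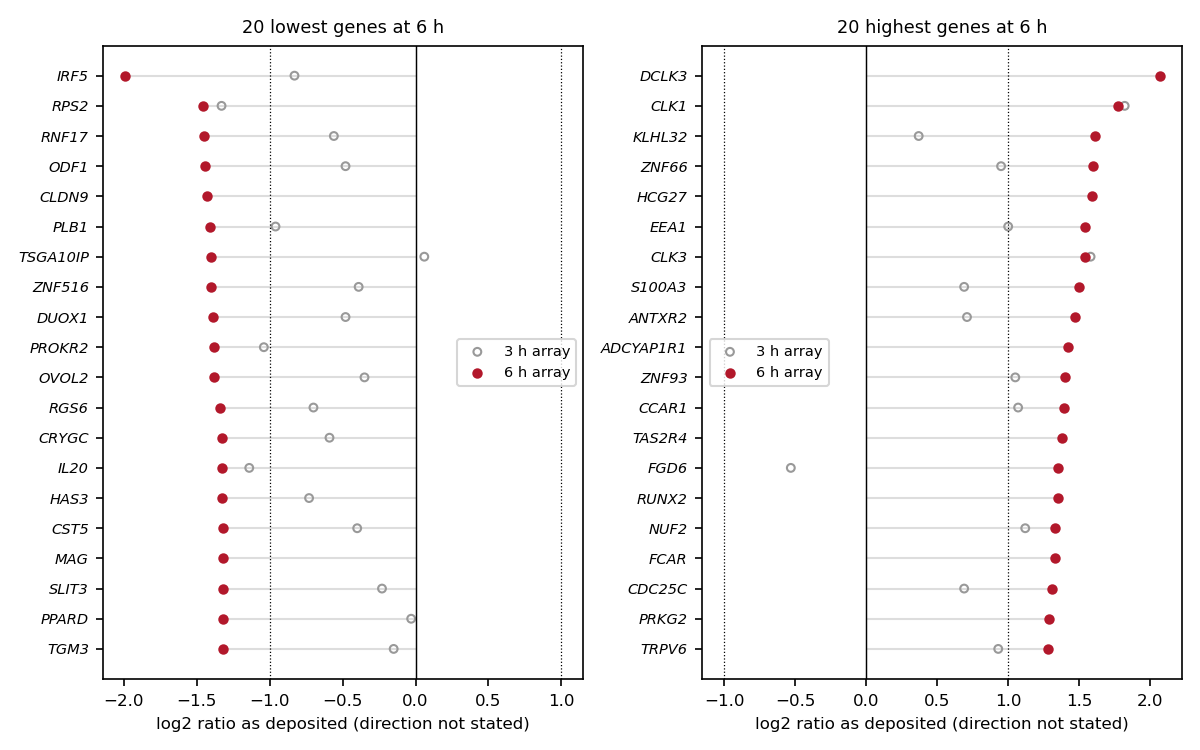
Log2 ratios as deposited (x axis) of the 20 lowest and 20 highest genes at 6 h, 1 gene per row, with the 6 h array as filled points and the 3 h array as open circles where it had a value. Every gene has 1 probe and no error bar, the dotted lines mark 1 and −1, and CLK1, CLK3 and RPS2 are among the few whose 3 h circle lies close to the 6 h point.

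Of the 75 positive genes past 1 unit, 59 had a 3 h value, with a median of 0.80 there against 1.15 at 6 h, and 53 were positive at 3 h. Of the 78 negative genes, 71 had a 3 h value, with a median of −0.48 against −1.19, and 67 were negative. The genes were picked at 6 h, which by itself makes their 6 h values the larger, and both arrays may share the control RNA. No share of all genes with the same sign on both arrays is given here to set beside these counts.

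Gene lists were then read against the whole array. Lists and members were chosen with earlier results of these data known. Their medians and shares are therefore a description, and their distance from the share of all genes is no independent support. Of 49 lists, 30 had a median above 0 and 19 below, from −0.37 for endothelial markers to 0.43 for mitotic kinesins. In 12 lists at least 70% of measured members were positive, and in 8 at least 70% were negative. In 34 lists no member reached 1 unit.

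**Figure D3:**
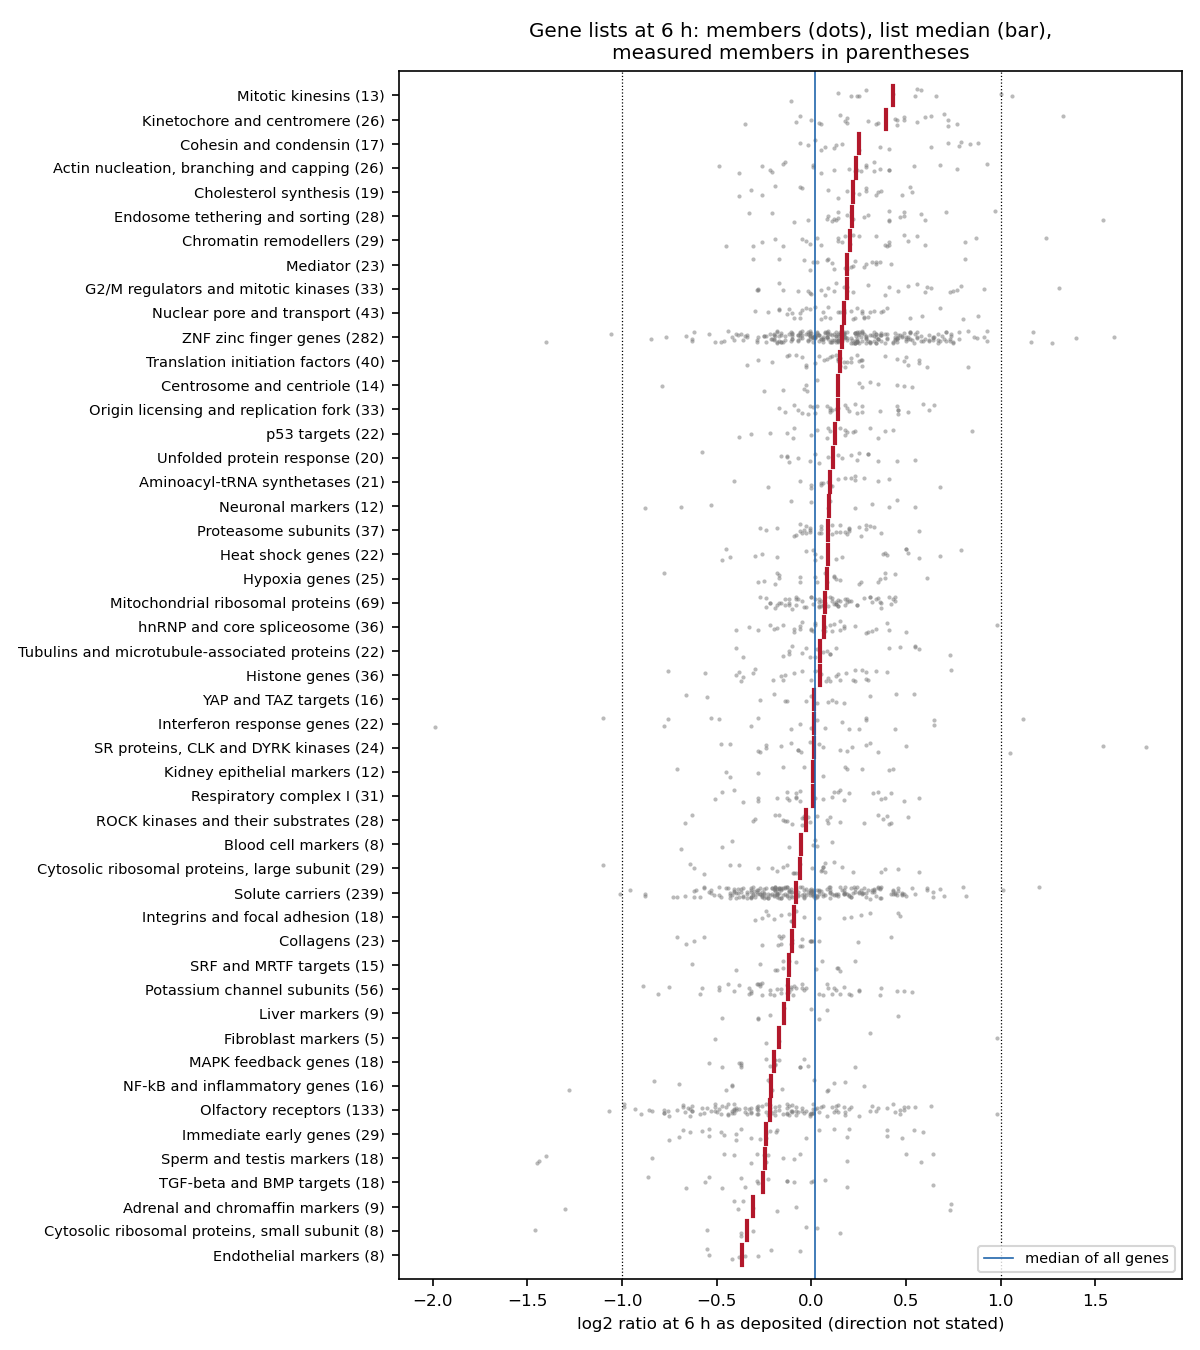
Gene lists in order of their median log2 ratio at 6 h, with 1 dot per measured member, a red bar at the list median and the number of measured members in parentheses. The blue line is the median of all genes at 0.02, and the mitotic kinesin and kinetochore lists stand at the top, at 0.43 and 0.40, an order that does not hold with the symbols as first listed (0.27 for each, and 0.37 for cohesin and condensin).

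The inhibited kinases had positive values and their partners lay on both sides. ROCK1 had 0.41 and ROCK2 0.38, each from 1 probe, beside an SD of 0.34 between probes of a gene. The list of ROCK kinases and substrates had 28 of 34 genes measured and a median of −0.03, with 12 positive and 16 negative. None was at 1.5-fold on the positive side and 2 (7.1% against 4.24% of all genes) were on the negative side. Those were PPP1R12B, a myosin phosphatase subunit, at −0.67 from probes at −1.17 and −0.17, and MYL9, the regulatory light chain that ROCK phosphorylates, at −0.63. PPP1R12A, the gene of MYPT1, had −0.02, LIMK1 had −0.04 and LIMK2 −0.17. TESK1, a kinase that also acts on cofilin, had 0.51, RDX, of the ezrin family, 0.42 and the cofilin gene CFL2 0.40.

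For actin nucleation, branching and capping, 19 of 26 genes were positive (median 0.24). The capping protein gene CAPZB had 0.93, the formin gene DIAPH2 0.77, ARPC3, of the Arp2/3 complex, 0.68 and CYFIP1, of the WAVE complex, 0.54, whereas the formin gene FMNL2 had −0.49 and WASF1 −0.38. Targets of SRF and MRTF had a median of −0.12 over 15 genes with 9 negative, and TAGLN at −0.40 followed MYL9. Targets of YAP and TAZ had 0.02 over 16 genes, from AMOTL2 at −0.66 to CCN1 at 0.54. Integrin and focal adhesion genes had −0.09 over 18 genes, and none reached 1.5-fold.

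Early response genes lay mainly on the negative side. Of 29 measured immediate early genes, which growth factors and stress switch on without new protein synthesis, 20 were negative and the median was −0.24. At 1.5-fold, 4 were negative (13.8% against 4.24% of all genes) and 1 was positive. FOS had −0.75, JUN −0.70, EGR1 −0.68 and JUND −0.64. KLF4 had 0.59, CCN1 0.54, the survival gene MCL1 0.48 and the kinase gene SGK1 0.40, so the list held both signs. MYC had −0.37.

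A list of feedback and target genes of MAPK signalling was negative in 17 of 18 cases with a median of −0.20, and EPHA4, a receptor gene, at 0.23 was the exception. It holds inhibitors that the ERK pathway induces (the 8 measured DUSP, SPRY and SPRED genes, all negative) and other targets such as MYC, FOSL1, CCND1 and the ETV factors. None of them reached 1.5-fold in either direction. The farthest were DUSP6, the phosphatase gene for ERK, at −0.54, DUSP7 at −0.47, PHLDA1 at −0.38 and SPRY2 at −0.37. The list shares MYC, IER3 and FOSL1 with the immediate early list. On the 3 h array the medians were −0.21 for the immediate early genes and −0.28 for the feedback genes, and EGR1 had the opposite sign there, 0.43.

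**Figure D4:**
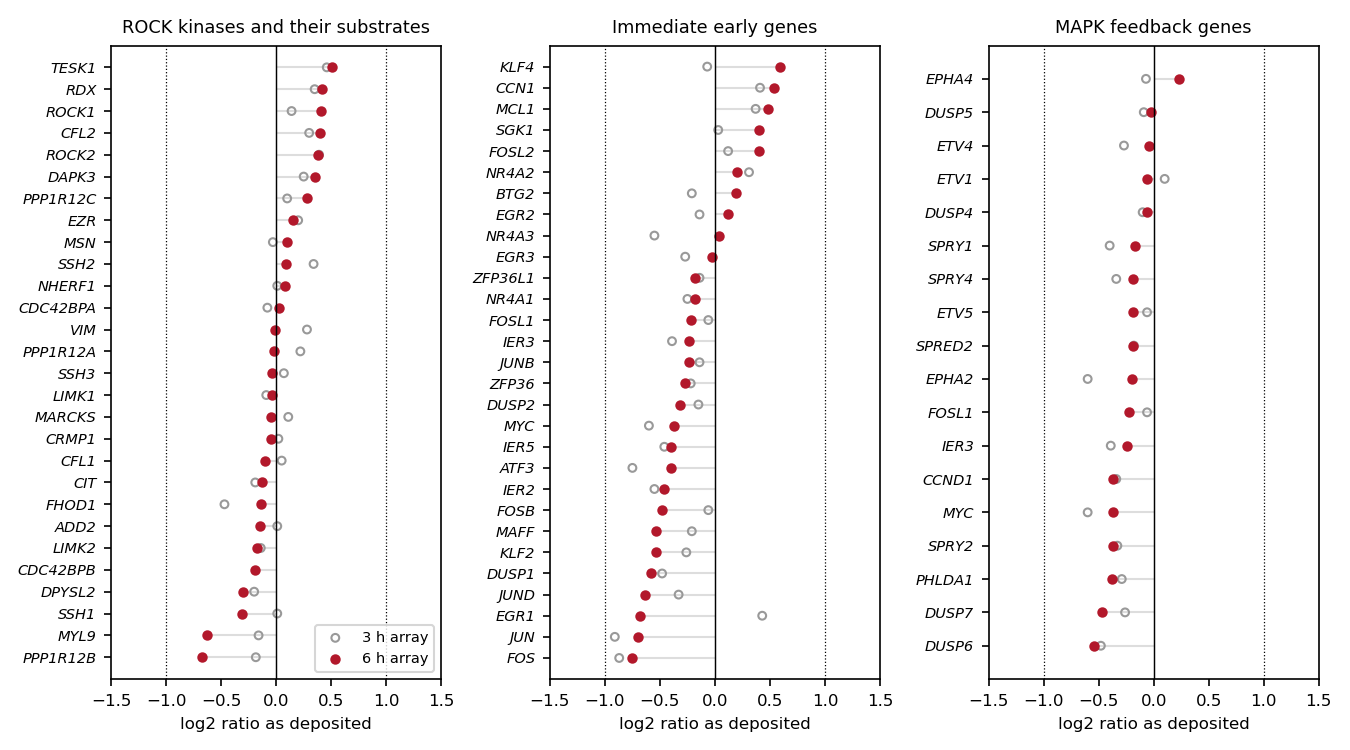
Log2 ratios as deposited of measured members of 3 lists, with the 6 h array as filled points and the 3 h array as open circles. ROCK kinases and substrates straddle 0, immediate early genes run from −0.75 for FOS to 0.59 for KLF4, and 17 of 18 MAPK feedback genes lie below 0 at 6 h.

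Many rapidly induced genes are known to have a TATA box. Its letters TATAAA, on either strand, stood in 5 of 22 immediate early promoters (22.7%) and in 8.0% of 8614 promoters of measured genes, in windows from 250 bases before to 50 bases after the start. It stood in 12% of all 27305 promoters of the table, in 64.7% of histone promoters and in 0 of 10 MAPK feedback promoters. The 120 bases before the start are shown, chosen after the values were seen, for the lowest pair of genes with a match there, with the match in capitals. FOS (log2 ratio −0.75) lies at chr14:75278708-75278827 on the plus strand, and DUSP1 (−0.58), a phosphatase gene that acts on JNK, p38 and ERK, at chr5:172771196-172771315 on the minus strand, both in RefSeq on GRCh38.p14 and written 5′ to 3′ along the gene.
FOS: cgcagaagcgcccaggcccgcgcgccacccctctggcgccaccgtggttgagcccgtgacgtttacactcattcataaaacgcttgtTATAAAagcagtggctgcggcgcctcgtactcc
DUSP1: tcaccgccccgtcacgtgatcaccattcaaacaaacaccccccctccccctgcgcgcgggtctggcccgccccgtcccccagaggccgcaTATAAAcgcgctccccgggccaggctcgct
The match began 33 bases before the start in FOS and 30 in DUSP1. A match is a run of letters and not a measured site.

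Genes of mitosis lay on the positive side. Of 26 measured kinetochore and centromere genes, which link chromosomes to the spindle, 22 were positive and 3 negative, with a median of 0.40. At 1.5-fold, 7 were positive (26.9% against 5.63% of all genes) and none negative. NUF2, of the NDC80 complex that holds microtubule ends, had 1.33, CENPH 0.77, SKA3, which helps that hold, 0.72, and SGO2, which guards centromeric cohesion, 0.72. CENPM had −0.35 and CENPA, the centromeric histone, −0.08 over 3 probes.

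Of 13 mitotic kinesins, motors that build the spindle and move chromosomes, 12 were positive with a median of 0.43. KIF20B, which acts in cytokinesis, had 1.06, KIF18A, which limits chromosome swings at the spindle, 1.0, KIF14 0.66 and KIF15 0.58, while KIF4A had −0.11. With the symbols as first listed by the platform fewer members matched, and the medians were 0.27 for 10 kinesins and 0.27 for 12 kinetochore genes, below the 0.37 of 7 cohesin and condensin genes. On the 3 h array the kinesins had a median of 0.20 and the kinetochore genes 0.32. Cohesin and condensin genes, whose rings hold and fold chromosomes, were positive in 15 of 17 cases (median 0.25). At 1.5-fold, 6 were on the positive side (35.3% against 5.63% of all genes). SMC3 had 0.88, SMC2 0.84, the acetyltransferase gene ESCO1 0.79 and NCAPH 0.78.

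The regulators of mitotic entry and exit were more divided. Of 33 measured genes 24 were positive and 8 negative, with a median of 0.19. At 1.5-fold there were 9, all positive (27.3% against 5.63% of all genes). CDC25C had 1.31, the checkpoint kinase gene TTK 0.91, HMMR, a spindle protein gene, 0.79 and RACGAP1 0.77. PLK1, the main mitotic kinase of the polo family, had −0.29, the separase gene ESPL1 −0.28, MYBL2, an activator of late cell cycle genes, −0.28 and cyclin F (CCNF) −0.17. The proliferation marker MKI67 at 0.05 and the regulator FOXM1 at 0.07, a pair picked once their values were known, lay near 0. Origin and replication fork genes were positive in 26 of 33 cases (median 0.14), the farthest being ORC4 at 0.65 and ORC1 at 0.62, and the replication helicase genes MCM2 and MCM7 had −0.14 and −0.09.

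**Figure D5:**
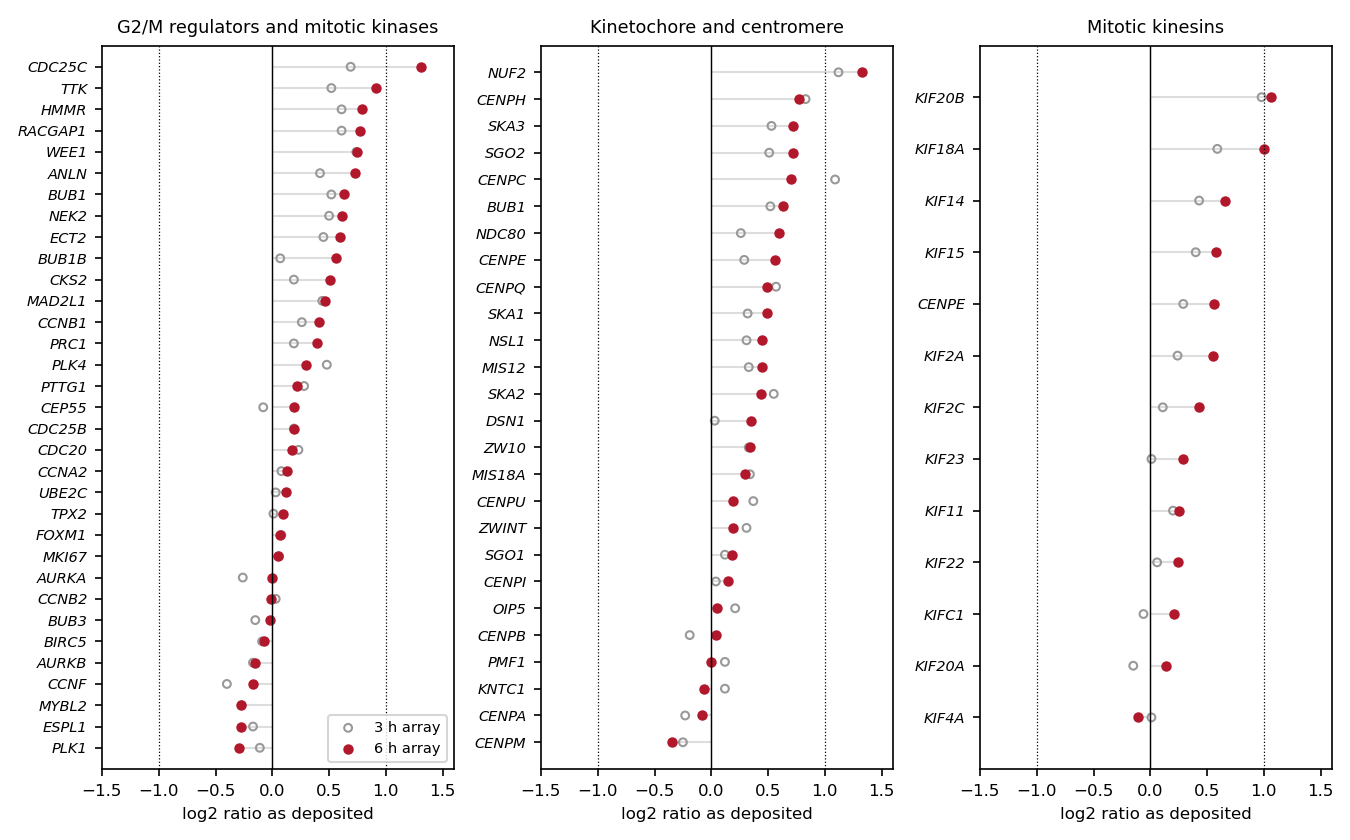
Log2 ratios as deposited of measured members of 3 mitotic lists, with the 6 h array as filled points and the 3 h array as open circles. At 6 h, 12 of 13 kinesins and 22 of 26 kinetochore genes lie above 0, and CDC25C, NUF2, KIF20B and KIF18A reach the dotted line at 1.

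Late cell cycle genes are known to carry the letters TTTGAA, the cell cycle genes homology region, near their start, where the MuvB complex binds. In promoters of the RefSeq table, searched on both strands, it stood in 15 of 24 (62.5%) of the mitotic regulators, 8 of 13 (61.5%) of the kinesins and 8 of 22 (36.4%) of the kinetochore genes. Of all 27305 promoters in RefSeq's list 15.4% had it, of the 8614 of measured genes 10.5%, and of 107 olfactory receptor genes 35.5%. Over the 3 lists together, with each gene counted once, 31 genes with the letters had a median log2 ratio of 0.39 with 25 positive, and 26 genes without had 0.30 with 23 positive. That difference was not tested. The 120 bases before the start are shown, again chosen by value, for the 4 highest genes of the 3 lists with a match there, with matches in capitals, read 5′ to 3′ along the gene. KIF18A is at chr11:28108157-28108276 (minus), HMMR at chr5:163460512-163460631 (plus), ANLN, a scaffold gene of the contractile ring, at chr7:36389742-36389861 (plus) and CENPC, which anchors the kinetochore on centromeric chromatin, at chr4:67545504-67545623 (minus), in RefSeq on GRCh38.p14.
KIF18A: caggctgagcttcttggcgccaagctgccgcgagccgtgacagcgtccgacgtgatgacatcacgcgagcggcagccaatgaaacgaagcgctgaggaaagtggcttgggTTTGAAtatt
HMMR: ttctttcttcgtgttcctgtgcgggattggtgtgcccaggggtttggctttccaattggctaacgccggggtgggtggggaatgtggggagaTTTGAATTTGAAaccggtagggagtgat
ANLN: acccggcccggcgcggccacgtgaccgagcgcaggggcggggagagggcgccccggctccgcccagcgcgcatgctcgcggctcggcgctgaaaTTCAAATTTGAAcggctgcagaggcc
CENPC: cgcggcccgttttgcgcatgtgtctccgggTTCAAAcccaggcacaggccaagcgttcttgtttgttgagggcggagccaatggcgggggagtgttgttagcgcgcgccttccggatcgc
KIF18A (log2 ratio 1.0) had 1 match, 10 bases before the start. HMMR (0.79) had 2 adjoining copies, 28 and 22 bases before it. ANLN (0.73) had a copy on each strand, 26 and 20 bases before it, and the match of CENPC (0.70) lay on the other strand and farther out, 90 bases before it.

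Splicing regulators were set apart by a single family. Of 24 measured genes of SR proteins, CLK and DYRK kinases, 12 were positive and 12 negative, with a median of 0.02. The 3 past 1 unit, and the 3 at 1.5-fold (12.5% against 5.63% of all genes), were CLK1 at 1.77, CLK3 at 1.54 and CLK2 at 1.05. CLK kinases phosphorylate SR proteins in the nucleus. CLK4 had 0.29. On the 3 h array they had 1.82, 1.58, 1.03 and 0.68 in that order, so CLK4 was the one of the 4 with the smaller value at 6 h by more than 0.34. The SR protein genes, whose products they phosphorylate, ran from −0.48 for SRSF3 to 0.50 for SRSF11. Core spliceosome and hnRNP genes had a median of 0.07 over 36 genes, with PRPF39, of the U1 particle, at 0.98.

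The protein synthesis machinery was split by its parts. For ribosomal proteins of the small subunit the median was −0.34 and 6 of 8 values were negative, the farthest being RPS2 at −1.46 and RPS10 at −0.55. Large-subunit genes had −0.06 over 29 genes, from RPLP0, of the stalk, at −1.10 to RPL34 at 0.57. Genes with an EIF symbol, initiation factors and the EIF2 kinases, were positive in 31 of 40 cases (median 0.15). EIF2S1, the subunit whose phosphorylation slows translation, had 0.83 and EIF1AX 0.61. Aminoacyl-tRNA synthetases had 0.10 with 16 of 21 positive, led by TARS1 at 0.68. Mitochondrial ribosomal protein genes had 0.07 over 69 genes and respiratory complex I genes 0.01 over 31, with none at 1.5-fold in either list.

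Lists of membrane traffic, transcription and chromatin had more positive than negative members. Endosome tethering and sorting genes were positive in 24 of 28 cases (median 0.22). EEA1 at 1.54, its partner on RAB5, RABEP1, at 0.97, and STAM, an adaptor that sorts ubiquitinated receptors, at 0.71 led it, and RABEP2 had −0.33. Mediator genes, whose complex links activators to RNA polymerase II, had 0.19 with 19 of 23 positive, led by MED31 at 0.81. Chromatin remodeller genes had 0.21 with 21 of 29 positive, led by SMARCAD1 at 1.24, SMARCA5, of the ISWI class, at 0.87 and SMARCA2, of SWI/SNF, at 0.81. Genes of nuclear pores and transport had 0.17 with 30 of 43 positive, led by the import receptor gene IPO8 at 0.88.

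Zinc finger genes with a ZNF symbol, mostly DNA-binding repressors, numbered 282, with a median of 0.16 and 201 positive. At 1.5-fold, 37 (13.1% against 5.63% of all genes) were positive and 8 negative. The 129 on chromosome 19 had a median of 0.18 and the 152 known to lie elsewhere 0.16, and on the 3 h array the list had 0.13. The 5 past 1 unit on the positive side, ZNF66 at 1.6, ZNF93 at 1.40, ZNF100 at 1.27, ZNF708 at 1.17 and the pseudogene ZNF137P at 1.16, were all on chromosome 19. The first 4 of these lie in one run of neighbouring ZNF genes there. From ZNF14 to ZNF254, ends chosen after the values were seen, 9 of 17 measured ZNF genes were at 1.5-fold on the positive side, and 5 were negative, the lowest ZNF492 at −0.48. These genes are close paralogs, and whether their probes tell them apart was not tested. On the negative side, ZNF516 had −1.40 and ZNF135 −1.06.

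Secreted and immune responses were mixed. Targets of TGF-beta and BMP were negative in 13 of 18 cases (median −0.26). CDKN2B led them at −0.87, but its probes disagreed as given above, and LTBP2, a matrix protein gene, had −0.66 and the inhibitor gene ID1 −0.56. SKIL, a feedback repressor of the same pathway, had 0.64. NF-kB and inflammatory genes had −0.22 with 10 of 16 negative, from the chemokine gene CXCL1 at −1.28 and the adaptor gene TRAF1 at −0.83 to the inhibitor gene NFKBIA at 0.28. CXCL8, chosen after its values were seen, had a mean of 0.01 over 3 probes from −0.45 to 0.89.

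Interferon response genes lay on both sides. Over 22 genes the median was 0.02, and 3 were past 1 unit, beside 153 of all 10716 genes. They were IRF5 at −1.99, IFIT3, an antiviral RNA-binding protein gene, at −1.10 and IFI27 at 1.12. At 1.5-fold, 3 were positive (13.6% against 5.63% of all genes) and 4 negative (18.2% against 4.24%). ISG15, a ubiquitin-like modifier, and STAT2 had 0.65, whereas MX2 had −0.78 and OAS1 −0.76. Cholesterol synthesis genes had 0.22 with 13 of 19 positive and none at 1.5-fold. Among p53 targets DDB2, of DNA repair, had 0.85, and the list median was 0.12 over 22 genes. Heat shock genes had 0.09, hypoxia genes 0.08 and genes of the unfolded protein response 0.12.

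Several lists of genes of other tissues had mainly negative members, and others did not. Olfactory receptor genes, which serve smell in the nose, were negative in 94 of 133 cases (median −0.22), and 23 were at 1.5-fold on that side (17.3% against 4.24% of all genes). OR10R3P, a pseudogene, had −1.07 and OR4A16 had 0.98. Sperm and testis markers had −0.25 with 14 of 18 negative and 3 past −1, beside 0.728% of all genes. The 4 positive ones included TSGA10 at 0.64, SPATA16 at 0.58 and ODF2 at 0.50. On the 3 h array this list had a median of −0.05 with 11 of 17 negative. Each of the 8 measured endothelial markers was negative (median −0.37), but none reached 1.5-fold. Of 9 adrenal and chromaffin markers 7 were negative, among them TH, the enzyme gene of dopamine synthesis, at −1.30. The other 2 of the 9, DBH, whose enzyme turns dopamine into noradrenaline, and the steroid enzyme gene CYP17A1, were at 0.74 and 0.73, both past 1.5-fold. On the 3 h array the adrenal and chromaffin list had 4 positive and 4 negative members (median −0.03), and TH had −0.09. Collagens had −0.10 with 17 of 23 negative, and potassium channel subunits −0.12 with 38 of 56 negative, the lowest KCNE4 at −0.89. Neuronal markers had 7 positive and 4 negative of 12 (median 0.10), with ELAVL3 at −0.88 and MAP2 at 0.55, and kidney epithelial markers 6 and 6 (0.01). Blood cell markers had 4 and 4 (−0.06), with CD8A at −0.69. Fibroblast markers had 2 positive and 3 negative (−0.17), with POSTN, a matrix protein gene, at 0.98, and liver markers 3 and 5 of 9 (−0.14). These negative lists lay on the same side as the MAPK and TGF-beta lists, and the part of low signal in either was not tested. A ratio holds no level, so the identity of the cells could not be checked against these markers. Both channels are labelled as the same established cell line. The marker lists are therefore read as genes of other tissues and not as numbers of cells of those tissues.

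Other lists lay near the median of all genes. Tubulins and microtubule-associated proteins had 0.05 with 13 of 22 positive, from MAP1B at −0.40 to MAPRE2, which binds growing microtubule ends, at 0.73. Proteasome subunits had 0.09 with 23 of 37 positive, centrosome genes 0.14 with 8 of 14 positive and PCNT, a scaffold of the centrosome, at −0.79, and histone genes 0.05 with 21 of 36 positive, from H1-6 at −0.76 to H2AC6 at 0.74. Solute carriers had −0.08 with 136 of 239 negative, and 3 of the 239 were past 1 unit, beside 153 of all 10716 genes. They were SLC17A2 at 1.20, SLC15A3, a peptide transporter gene of lysosomes, at 1.01 and SLC16A11 at −1.01. On the 3 h array they had −0.15, −0.64 and −0.24 in that order.

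The 4 reference genes fixed by name had 0.16 for HPRT1, 0.11 for GUSB, −0.05 for TBP and −0.34 for GAPDH, and at 3 h 0.26, 0.13, −0.37 and −0.40.

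Gene span in RefSeq, which played no part in choosing genes, differed along the array. The median span was 45.9 kb for the 74 genes at 1 or more with a span, 21.6 kb for the 78 at −1 or less and 28.3 kb for all 10613 genes with one. From the lowest to the highest of 5 equal groups of genes by log2 ratio, median spans were 21.5, 21.8, 27.6, 32.2 and 40.2 kb. Spearman's coefficient across genes was 0.14, a description over genes of 1 array. Promoter G+C content had 0.01 over 8614 genes, with medians of 59.7% in positive genes past 1 unit, 60.3% in negative ones and 64.3% in all. Mitotic kinesins had a median span of 69.3 kb, kinetochore genes 31.8 kb, immediate early genes 4.9 kb, MAPK feedback genes 13.5 kb and olfactory receptor genes 1.1 kb, and the part of span or of transcript features that go with it in these medians was not tested.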

How the data were processed

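The submitters deposited 1 value per probe and array, a log ratio of the Cy5 and Cy3 channels with a median of 0. Per the labels' protocols, total RNA was amplified with amino allyl nucleotides, to which the dyes were joined. The log base, background correction, normalization, probe filter and the numerator are each not given in the sources consulted. The deposited values were read as log2, since 1 SD of all probes is 1.31-fold in base 2 and would be 2.45-fold in base 10. Of 13395 probes with 1 gene symbol in the platform annotation, 10822 symbols were current in RefSeq (GRCh38.p14), 2446 were older synonyms of a single gene and were replaced, and 127 stayed as listed. The other 10872 probes had none.

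A gene was the mean of its probes. No test was possible with 1 array. Genes were counted at 1 and at 0.58 units from 0. Named genes were drawn from the 20 highest and 20 lowest genes without placeholder symbols, genes with every probe at 1.5-fold, the 4 genes at each end of each list, list members past 1 unit and a set fixed by name, and not all of them are printed. BAALC was named for its widest spread between probes, and others are said to be chosen after their values were seen. Members and lists were chosen with earlier results of these data known. Antisense transcripts were left out of lists made by symbol. Promoters came from RefSeq (GRCh38.p14), for each gene its first-listed start, and 8614 of 10716 genes had one. The letters TTTGAA and TATAAA were searched on both strands. Protein lengths were planned and not used here, and gene span took their place. The gene summary was tested on simulated data. Python 3.11.15, pandas 2.3.3 and matplotlib 3.10.9 were used. A further gene list is not reported here.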

Additional observations from a re-analysis of the deposited data

Results flagged for a closer look

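Signs are those of the deposited ratio, and none of these differences could be tested, because each time has 1 array. In 8 of the 431 named genes, 411 of which had probes valued on both arrays, the sign changed between the 3 h and the 6 h array, with a gap of 1 unit or more. The difference, 6 h minus 3 h, was 1.88 for FGD6, 1.65 for SLC15A3 and for ZNF137P, 1.49 for RANBP10, 1.35 for SLC17A2, 1.04 for OR6T1, −1.11 for EGR1 and −1.46 for TSGA10IP. Each of these genes had 1 probe.

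Probes without a gene symbol enter no comparison above. At 6 h, 277 of 8923 (3.10%) lay at least 1 unit from 0, 172 positive and 105 negative, against 174 of 11414 probes with a symbol (1.52%).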

How the results depend on the processing

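With 1 array per time, nothing about the spread between cultures or hybridisations can be measured, and leaving out a replicate was not possible. No paired analysis was possible because the 6 h comparison is a single array. The counts past a 2-fold difference depend on the size and on the log base. At 1.5-fold in base 2 they were 603 positive and 454 negative, and with a 2-fold size if the values are natural logs, 346 and 294. Under the 5 other settings the counts at 1 unit ran from 60 to 86 positive and from 71 to 88 negative. Those settings were the median of probes, the probe farthest from 0, subtraction of the gene median, probes valued on both arrays and the symbols as listed. List medians moved in 5 cases, all with the symbols as listed, where fewer members matched: kinetochore genes to 0.27, mitotic kinesins to 0.27, cohesin and condensin to 0.37, centrosome genes to 0.29 and interferon genes to −0.06. Under that setting 43 list medians stayed the same, and no median was counted for the rest of the 49 lists. All 431 named genes had a value under 3 settings, 411 with probes valued on both arrays and 359 with the symbols as listed. Of these, 7 moved with the probe farthest from 0 and 1 with probes valued on both arrays. No named gene past the 1-unit size changed sign where it had a value, but each rests on 1 probe. The choice among probes therefore could not change its sign, nor could subtracting a gene median of 0.02. The base and the direction of the ratio remain unknown.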
